A study of Mus musculus with 42 samples.

Results

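The genes described here are 34 genes of cholesterol and fatty acid synthesis and their close regulators, found by matching their symbols to the Ensembl identifiers of the deposited count table, which lists 46603 genes. All 34 were found. They comprise 18 enzymes of the sterol pathway, 10 genes of fatty acid synthesis and activation, 4 regulators (Insig1, Srebf1, Srebf2 and Stard4) and 2 cholesterol efflux transporters (Abca1 and Abcg1). The list was set by gene name and not by a cut on a measured value, but it was chosen with earlier results of these data known. RNA had been sequenced in bulk from sorted CD4+ T cells of TNFdARE mice and of their WT littermates, 42 libraries in 16 groups. TNFdARE mice lack a regulatory element of the Tnf gene that limits TNF production, and they develop inflammation of the ileum and of the joints. Mice of both genotypes carried the DEREG transgene, in which the Foxp3 promoter drives a GFP reporter, and this reporter separated regulatory T cells (Treg) from conventional CD4+ T cells (Tconv). The cells came from 2 tissues that become inflamed in TNFdARE mice, the ileum and the synovium of the ankle, in both genotypes. They also came from the draining lymph nodes: the mesenteric node for the ileum, and inguinal pooled with popliteal nodes (called joint nodes here) for the ankle. Libraries carry the letters of 3 experiments, A, B and C. TNFdARE groups have 3 libraries, except that both cell types of the mesenteric node and Tconv of the synovium have 2. WT groups have 3 libraries, except 2 for synovial Treg and 1 for synovial Tconv. Ages, and how many mice were behind a library, are not given in the sources used here.

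Cells make cholesterol from acetyl-CoA through mevalonate, isoprenoids, squalene and lanosterol. When membrane sterol is low, the transcription factor encoded by Srebf2 is released from the endoplasmic reticulum and raises the enzymes of this route, and Insig1, itself a target of the factor, holds it back. The product of Srebf1 acts more on fatty acid synthesis, which starts from cytosolic acetyl-CoA made by Acly or Acss2 and is extended and desaturated by the Elovl, Scd and Fads enzymes. Abca1 and Abcg1 export cholesterol and are raised by sterol-sensing liver X receptors. T cells raise both pathways when they are activated and divide.

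The total count lay between 18261064 and 30301202 per library, and between 13341 and 31454 genes were detected. Values below are CPM (read counts scaled to a common library total) on effective library sizes, and a gene was called when its adjusted p over all genes tested was below 0.05 in edgeR's quasi-likelihood test. No source says whether libraries of a group came from separate mice, so p-values measure the spread between these libraries. Tnf itself had 57.33 to 106.6 CPM in TNFdARE against 28.14 to 44.5 CPM in WT mesenteric node Treg. This was the only genotype comparison in which Tnf was called, and counts over the whole gene do not check the deleted element. Foxp3, which marks Treg, was between 566.2 and 1645 CPM in Treg libraries and between 6.166 and 618.5 CPM in Tconv libraries. The libraries labelled Tconv were not free of it in diseased mice: Foxp3 reached 615.4 and 618.5 CPM in TNFdARE synovial Tconv against 31.11 CPM in the WT library, and 115.2 to 199.8 CPM in TNFdARE ileal Tconv against 13.38 to 18.54 CPM in WT. Other cell types left RNA in tissue libraries. The summed CPM of 5 fibroblast markers was 1380 to 5806 in TNFdARE synovial Treg and 12740 and 15730 in WT synovial Treg, and no node library exceeded 7.502. The WT synovial Tconv library had 928.5 CPM of CD8 T and NK cell markers, and no other Tconv library exceeded 75.59. Plasma and B cell markers reached 5425 and 1943 CPM in the ileal Treg libraries of experiment A, TNFdARE and WT. Because the samples are bulk, fewer cells of a type and less RNA per cell cannot be told apart.

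The promoters of 4 genes are printed because their RNA separates the groups most clearly in the results that follow, or because they hold the motifs that were searched. They are RefSeq sequences of GRCm38.p6, from 250 bases before to 50 bases after the annotated start, in the direction of transcription. Capitals mark 2 motifs, both looked for on both strands: the sterol element TCACNCCAC, and ATTGG, the inverted CCAAT box, which reads CCAAT on the other strand. The spans are chr5:4104648-4104947 on the minus strand for Cyp51, chr5:28071162-28071461 on the plus strand for Insig1, chr13:119690101-119690400 on the plus strand for Hmgcs1 and chr9:54661836-54662135 on the minus strand for Acsbg1.
Cyp51: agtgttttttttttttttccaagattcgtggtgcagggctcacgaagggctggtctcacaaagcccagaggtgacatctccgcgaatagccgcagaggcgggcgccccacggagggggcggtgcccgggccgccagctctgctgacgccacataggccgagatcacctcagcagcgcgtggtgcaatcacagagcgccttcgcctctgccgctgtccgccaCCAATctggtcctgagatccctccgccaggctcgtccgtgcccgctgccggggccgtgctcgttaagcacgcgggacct
Insig1: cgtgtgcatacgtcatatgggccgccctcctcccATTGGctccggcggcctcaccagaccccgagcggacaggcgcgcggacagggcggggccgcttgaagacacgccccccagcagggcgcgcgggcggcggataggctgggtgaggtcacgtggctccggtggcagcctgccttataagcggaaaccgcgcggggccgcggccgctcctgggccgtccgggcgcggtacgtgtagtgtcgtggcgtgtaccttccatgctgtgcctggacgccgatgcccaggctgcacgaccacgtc
Hmgcs1: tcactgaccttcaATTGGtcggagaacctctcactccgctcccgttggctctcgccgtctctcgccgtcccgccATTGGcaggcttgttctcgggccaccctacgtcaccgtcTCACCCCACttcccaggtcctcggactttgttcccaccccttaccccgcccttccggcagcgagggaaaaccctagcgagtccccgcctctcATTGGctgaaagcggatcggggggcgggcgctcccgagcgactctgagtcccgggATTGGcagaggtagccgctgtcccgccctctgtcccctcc
Acsbg1: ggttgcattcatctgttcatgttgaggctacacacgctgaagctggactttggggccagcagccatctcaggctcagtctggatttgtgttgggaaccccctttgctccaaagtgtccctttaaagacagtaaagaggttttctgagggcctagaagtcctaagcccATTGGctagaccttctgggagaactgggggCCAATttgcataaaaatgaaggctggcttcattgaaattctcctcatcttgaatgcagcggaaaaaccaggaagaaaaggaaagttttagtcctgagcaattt
The RefSeq table held a promoter for 26 of the 34 genes. ATTGG was in 21 of these 26 genes (80.8%) and in 12289 of all 32851 promoters (37.4%). Of 15 sterol pathway enzymes with a promoter, 14 had it. TCACNCCAC was in 1 of the 26, Hmgcs1, 137 to 129 bases before the start, and in 408 of all promoters (1.24%). The first share of each motif counts genes, and a gene with more than 1 promoter, such as Srebf1, counted once. The share over all promoters counts promoters, so the shares are not like for like and show no enrichment. A match describes letters in a window and is no evidence of binding.

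Levels between genes can be compared only per length, in the authors' deposited FPKM table. Acly, which splits citrate into acetyl-CoA, had the highest median over the 42 libraries in the authors' deposited table, 64.61 FPKM, followed by Srebf2 at 60.48 FPKM. Sc5d, a late sterol desaturase, came next at 31.39 FPKM in the authors' deposited table and Acsbg1 at 25.54 FPKM. The lowest medians in the authors' deposited table were those of the desaturases Fads2 at 0.04545 FPKM and Scd1 at 0.009449 FPKM. The Scd1 median equals its lowest value there. No FPKM value is 0, although Scd1 falls to 0 CPM in the counts, so this median is a floor value and not a measured level. Acsbg1 spanned 3.043 to 57.03 FPKM between libraries of the authors' deposited table, and Acly only 41.93 to 77.82 FPKM.

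**Figure D1:**
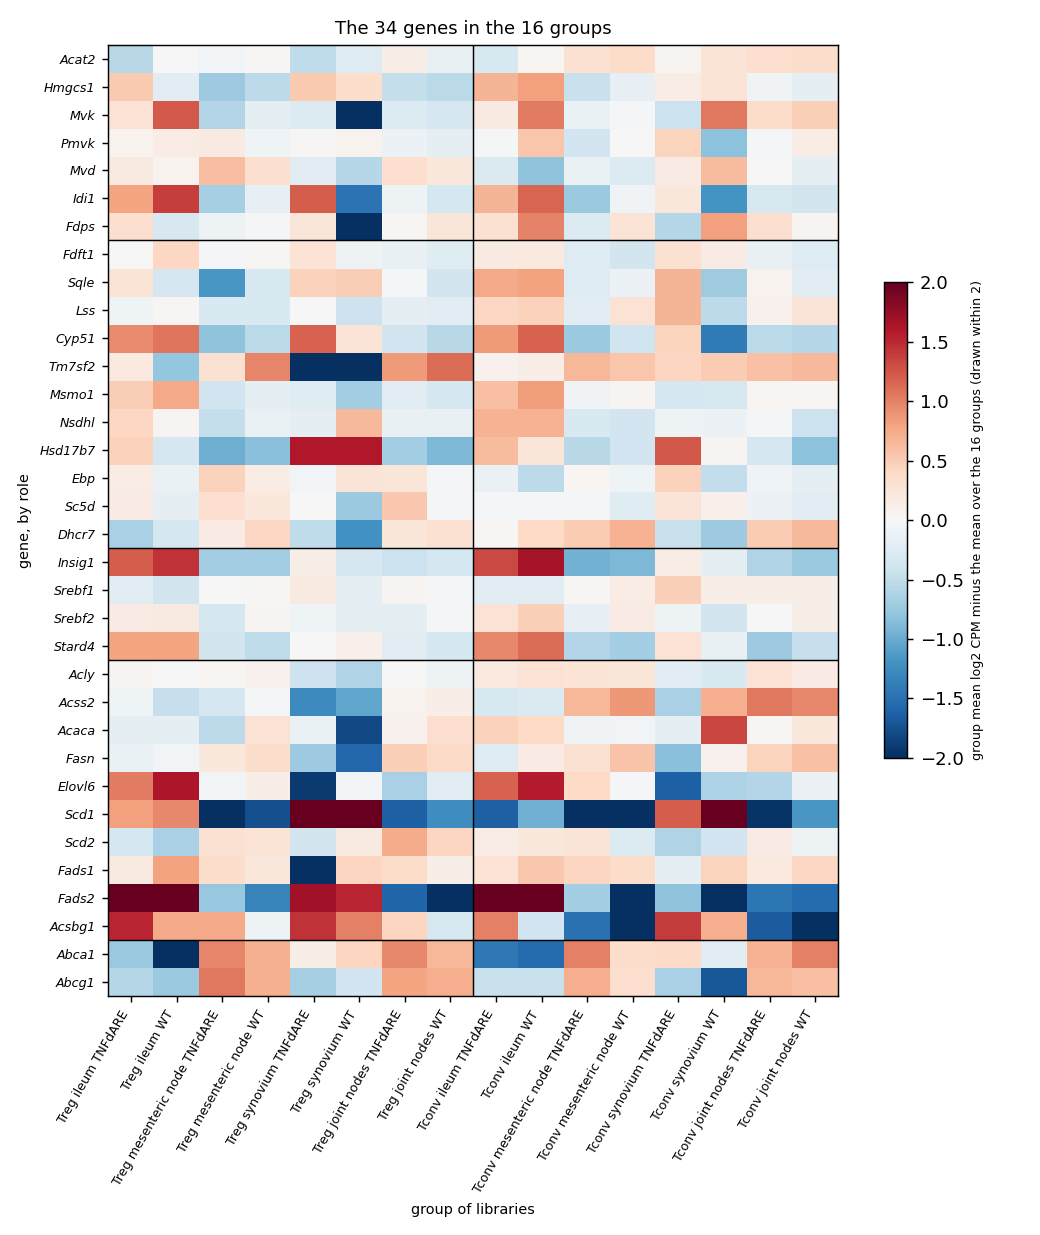
The 34 genes (rows, by role) in the 16 groups (columns). Colour is the group's mean log2 CPM minus the mean over the 16 groups, drawn within 2. Insig1, Stard4, Cyp51 and Elovl6 are red in the 4 ileal groups, Abcg1 is blue in all tissue groups, and Acsbg1 is lowest in the Tconv of the nodes.

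Acsbg1 was called most often of the 34 genes. Sqle, Sc5d, Scd2 and Abcg1 were also called at least once each by genotype, by cell type and by tissue. Acsbg1 encodes an acyl-CoA synthetase of the bubblegum family, which activates long-chain fatty acids, and lies at chr9:54604877-54661870 (GRCm38, minus strand). It was higher in TNFdARE than in WT in both cell types of the ileum, the mesenteric node and the joint nodes, it was higher in ileum and synovium than in the draining nodes, and it was higher in Treg than in Tconv at each site but the synovium, where the difference did not pass. In same-experiment pairs it was higher in TNFdARE in 19 of 19, by 0.278 to 1.49 on the log2 scale. Pairs of several sites and both cell types share the experiments A, B and C, so they are not independent, and they carry no test.

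In Treg, ileal libraries had 210, 171 and 242 CPM of Acsbg1 in TNFdARE against 135, 117 and 110 CPM in WT, and the groups did not overlap (log2 fold change 0.76 ± 0.13 SE, adjusted p = 0.03, edgeR). That call was lost, with an adjusted p of up to 0.099, without either library of experiment A or either library of experiment C. Treg of the mesenteric node had 109 and 132 CPM in TNFdARE against 61.7, 68.5 and 69.4 CPM in WT (0.91 ± 0.11, adjusted p = 0.00079, edgeR). Treg of the joint nodes had 94.1, 95.8 and 98 CPM in TNFdARE against 52.6, 66.7 and 53.6 CPM in WT (0.73 ± 0.11, adjusted p = 0.0011, edgeR). All TNFdARE libraries of these nodes lay above all WT libraries. Synovial Treg had 206, 191 and 187 CPM in TNFdARE against 170 and 120 CPM in WT, which did not pass (0.45 ± 0.21, adjusted p = 0.53, edgeR).

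In Tconv, the same gene had 151, 136 and 144 CPM in TNFdARE ileum against 53.6, 59.1 and 51.4 CPM in WT (log2 fold change 1.40 ± 0.14, adjusted p = 0.00058, edgeR). The mesenteric node had 23 and 27.7 CPM in TNFdARE against 14.8, 12.9 and 12.7 CPM in WT (0.89 ± 0.12, adjusted p = 0.0026, edgeR). The joint nodes had 22.7, 22.2 and 22.6 CPM in TNFdARE against 10.7, 12.5 and 10.4 CPM in WT (1.01 ± 0.12, adjusted p = 0.00013, edgeR). No groups overlapped, and these 3 calls and both node calls in Treg held when any single library was left out. Synovial Tconv had 190 and 186 CPM in TNFdARE against 118 CPM in the only WT library, a difference that was not tested. The genotype effect was not shown to differ between Treg and Tconv (difference between cell types −0.65 ± 0.19 in ileum, 0.03 ± 0.17 in mesenteric node and −0.28 ± 0.16 in joint nodes on the log2 scale, adjusted p = 0.87, 1 and 0.76, edgeR). Treg markers were higher in the same Tconv libraries: of Foxp3, Il2ra, Ctla4 and Ikzf2, 4 of 4 were called higher in TNFdARE at each node and 2 of 4 in the ileum. The summed CPM of these 4 was 2601 to 3067 in TNFdARE against 1546 to 1768 in WT ileal Tconv, 117.4 and 195.8 in TNFdARE against 46.06 to 71.46 in WT mesenteric node Tconv, and 92.36 to 124.2 in TNFdARE against 32.56 to 38.72 in WT joint node Tconv. Their part in the result was not tested.

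**Figure D2:**
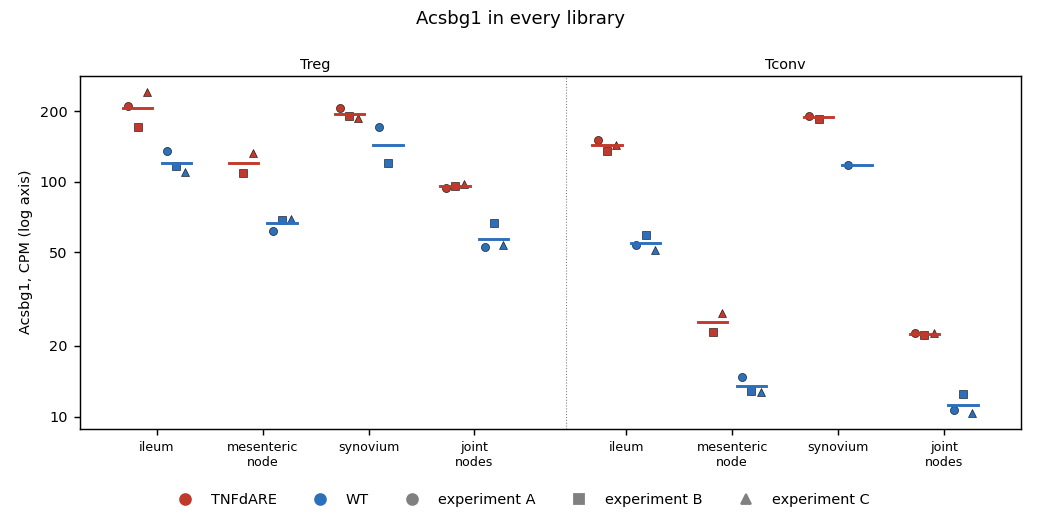
Acsbg1 in every library, in CPM on a log axis, by cell type and site. Points are libraries, colour is genotype, shape is experiment, and lines are group means. TNFdARE libraries lie above WT libraries at each site, and node Tconv lie lowest, between 10.4 and 27.7 CPM.

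Ileal T cells carried more RNA of the sterol regulators Insig1 and Stard4 and of several sterol enzymes than T cells of the mesenteric node, and less of the efflux transporter Abcg1. Averaged over both genotypes, 11 of 34 genes were higher and 2 lower in Treg, where 17% of all tested genes were higher and 12.2% lower. In Tconv, 19 of 33 were higher and 10 lower, where 34.3% of all tested genes were higher and 26.7% lower. Both counts of higher genes include Fads2, which passed the filter on low counts only through the ileal libraries. The median log2 fold change of the genes was 0.27 in Treg and 0.47 in Tconv, against 0.03 and 0.08 over all tested genes. The 11 genes higher in Treg were all among the 19 higher in Tconv (57.9% of those), and the 2 lower in Treg, Abcg1 and Dhcr7, were among the 10 lower in Tconv. The overlap of calls over all tested genes is not given here, so this overlap is not a trait shown for these genes. Of 12 proliferation markers, 12 were called higher in the ileum in Tconv and 3 in Treg, where their summed CPM overlapped between the sites (477.2 to 1035 in the ileum against 395.8 to 733 in the node). Their part in these results was not tested.

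Among the regulators, Insig1 (chr5:28071363-28078662, GRCm38, plus strand) stood furthest apart. Its lowest, median and highest levels were 66.7, 98.9 and 142 CPM in 6 ileal Treg libraries against 22.9, 25.4 and 25.9 CPM in 5 mesenteric node Treg libraries (log2 fold change 2.05 ± 0.19, adjusted p = 4.8e-05, edgeR). In Tconv they were 74.4, 112 and 151 CPM in the ileum against 19.6, 20.9 and 22.1 CPM in the node (2.45 ± 0.16, adjusted p = 9e-08, edgeR). No library of either site overlapped. Stard4, which carries cholesterol between membranes, had 32.1, 46.4 and 60.9 CPM in ileal Treg against 16.8, 19.8 and 20.1 CPM in node Treg (1.25 ± 0.17, adjusted p = 0.00051, edgeR). In Tconv Stard4 had 44.2, 52.8 and 61.7 CPM in the ileum against 13.2, 14.8 and 20.4 CPM in the node (1.67, adjusted p = 4.4e-07, edgeR). Srebf2 differed less, with 200, 271 and 303 CPM in ileal Treg against 174, 236 and 243 CPM in node Treg (adjusted p = 0.054, edgeR), and with 256, 300 and 333 CPM in ileal Tconv against 190, 244 and 276 CPM in node Tconv (0.38 ± 0.07, adjusted p = 0.00045, edgeR). Srebf1 went the other way in Tconv, 76.4, 85.5 and 93.7 CPM in the ileum against 93.2, 109 and 116 CPM in the node (−0.31 ± 0.07, adjusted p = 0.0025, edgeR).

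Of the 7 enzymes from acetoacetyl-CoA to farnesyl diphosphate, 2 were higher in ileal than in node Treg, and 5 were higher and 2 lower in ileal than in node Tconv. Of all tested genes, 17% were higher and 12.2% lower in Treg, and 34.3% higher and 26.7% lower in Tconv. Idi1, the isopentenyl diphosphate isomerase, had 6.6, 12.9 and 19.1 CPM in ileal Treg against 2.78, 4.5 and 6.68 CPM in node Treg (log2 fold change 1.52 ± 0.30, adjusted p = 0.005, edgeR). Hmgcs1, which makes HMG-CoA, had 136, 101 and 58.0 CPM in TNFdARE ileal Treg, 113, 103 and 14.8 CPM in WT ileal Treg, and 33.9 to 49.4 CPM in node Treg. The WT library of experiment C lay below the node libraries, and the difference did not pass (1.04 ± 0.44, adjusted p = 0.096, edgeR). In Tconv Hmgcs1 had 70.2, 117 and 140 CPM in the ileum against 47.0, 54.4 and 59.9 CPM in the node (1.10, adjusted p = 8.5e-05, edgeR). Mvk, the mevalonate kinase, was higher in the ileum in both cell types, and its call in Treg was lost with the experiment as a block (adjusted p = 0.054, edgeR). Acat2, the first thiolase of the route, and Mvd, the decarboxylase, were lower in ileal than in node Tconv (−0.46 and −0.33).

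Of the 11 enzymes from squalene synthase onwards, 4 were higher and 1 lower in ileal than in node Treg, and 7 were higher and 3 lower in Tconv. The shares of all tested genes were again 17% higher and 12.2% lower in Treg, and 34.3% higher and 26.7% lower in Tconv. Cyp51, the lanosterol demethylase (chr5:4081145-4104746, GRCm38, minus strand), had 158, 144 and 103 CPM in TNFdARE and 162, 158 and 118 CPM in WT ileal Treg. Node Treg had 42.3 and 36.6 CPM in TNFdARE and 41.7, 46.9 and 53.7 CPM in WT (log2 fold change 1.69 ± 0.14, adjusted p = 2.1e-05, edgeR). In Tconv the lowest, median and highest were 85.0, 141 and 194 CPM in the ileum against 40.6, 46.1 and 64.2 CPM in the node (1.64, adjusted p = 1.3e-05, edgeR). Both genotypes separated the sites completely. Msmo1, the methylsterol oxidase, had 49.2, 89.4 and 115 CPM in ileal Treg against 41, 43.8 and 51.1 CPM in node Treg (0.96 ± 0.19, adjusted p = 0.0046, edgeR). Nsdhl, a sterol dehydrogenase, had 33.04, 37.05 and 47.92 CPM in ileal Tconv against 17.51, 18.15 and 20.1 CPM in node Tconv (1.06 ± 0.11, adjusted p = 4.4e-06, edgeR), without overlap. Nsdhl and Hsd17b7, which act on the same methyl groups, were also called higher in both cell types, and Nsdhl in Treg was lost with the experiment as a block (adjusted p = 0.056, edgeR). Sqle, the squalene epoxidase, passed in Tconv alone, with 38.9, 69.8 and 80.5 CPM in the ileum against 28.2, 33.2 and 37.3 CPM in the node (1.01, adjusted p = 0.0003, edgeR). Whether its change differs between the cell types was not tested. The last enzyme of the route, Dhcr7, was lower in the ileum, with 13.7, 25.4 and 34.2 CPM in ileal Treg against 37.5, 41.6 and 47.7 CPM in node Treg (−0.74, adjusted p = 0.036, edgeR).

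Among the fatty acid genes, Elovl6, which extends palmitate, had 29.6, 33.9 and 61.5 CPM in ileal Treg against 14.5, 15.1 and 18.5 CPM in node Treg (log2 fold change 1.31 ± 0.15, adjusted p = 0.00022, edgeR), and Tconv gave 1.24 (adjusted p = 9.1e-05, edgeR). Acsbg1 had 110, 153 and 242 CPM in ileal Treg against 61.7, 69.4 and 132 CPM in node Treg (0.82 ± 0.11, adjusted p = 0.00043, edgeR), and Tconv gave 2.27 ± 0.08 (adjusted p = 1e-09, edgeR). WT ileal Tconv alone, with Foxp3 at 13.38 to 18.54 CPM, had 51.4 to 59.1 CPM of Acsbg1 against 12.7 to 14.8 CPM in WT node Tconv. The summed 4 Treg markers moved with it, 1546 to 1768 CPM in WT ileal Tconv against 46.06 to 71.46 CPM in WT node Tconv, and their part was not tested. Acss2, which makes acetyl-CoA from acetate, had 45.3, 59.0 and 64.8 CPM in ileal Tconv against 108, 122 and 132 CPM in node Tconv (−1.06 ± 0.09, adjusted p = 1.3e-06, edgeR). In Treg Acss2 overlapped between the sites, 47.8 to 70.8 CPM in the ileum against 52.0 to 74.5 CPM in the node. Fasn, the fatty acid synthase, had 65.3, 91.4 and 103.5 CPM in ileal Tconv against 96.3, 130.3 and 142.5 CPM in node Tconv (−0.49, adjusted p = 0.00065, edgeR). Fads2 passed the filter on low counts only through the ileal libraries, so its values are a description. It was called higher in both ileal comparisons but came from few libraries: ileal Treg had 22.9, 10.9 and 0.581 CPM in TNFdARE and 11.2, 20.4 and 0 CPM in WT. The summed CPM of 5 epithelial markers was high in the same libraries, 471.7, 280.5 and 21.76 in TNFdARE and 332.7, 175.7 and 39.99 in WT. Its part was not tested, and the Treg call was lost with the experiment as a block (adjusted p = 0.16, edgeR).

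Both efflux transporters were low in the ileum. Abcg1 had 17.9, 44.6 and 73.4 CPM in ileal Treg against 99.2, 112 and 141 CPM in node Treg (log2 fold change −1.41 ± 0.31, adjusted p = 0.0086, edgeR) and 35.4, 47.0 and 57.5 CPM in ileal Tconv against 76.8, 83.3 and 114 CPM in node Tconv (−0.97, adjusted p = 9.5e-06, edgeR). Abca1 had 7.86, 10.5 and 15.3 CPM in ileal Tconv against 32, 45.5 and 71.3 CPM in node Tconv (−2.15 ± 0.18, adjusted p = 8.4e-07, edgeR). In ileal Treg Abca1 was between 0 and 29 CPM against 44 to 60.1 CPM in the node, without passing. Within experiments, Insig1, Stard4, Cyp51, Idi1, Msmo1, Elovl6 and Acsbg1 were higher in the ileum in 5 of 5 Treg pairs and 5 of 5 Tconv pairs, and Abcg1 was lower in all of them. In the ileal Treg libraries of experiment C, the 5 fibroblast markers summed to 14.28 CPM in TNFdARE and 15.55 CPM in WT. Plasma and B cell markers summed to 118.7 and 355 CPM there, and to at most 9.997 CPM in mesenteric node Treg. On the log2 scale, Insig1 was higher there than in the node by 1.52 in TNFdARE and 1.76 in WT, and Cyp51 by 1.5 and 1.13. Other enzymes did not all follow: Hmgcs1 changed by 0.776 in TNFdARE and −1.66 in WT, and Sqle by 0.978 and −1.47. In the other 4 ileal Treg libraries the fibroblast markers summed to between 157 and 1958 CPM. The part of either marker list was not tested.

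**Figure D3:**
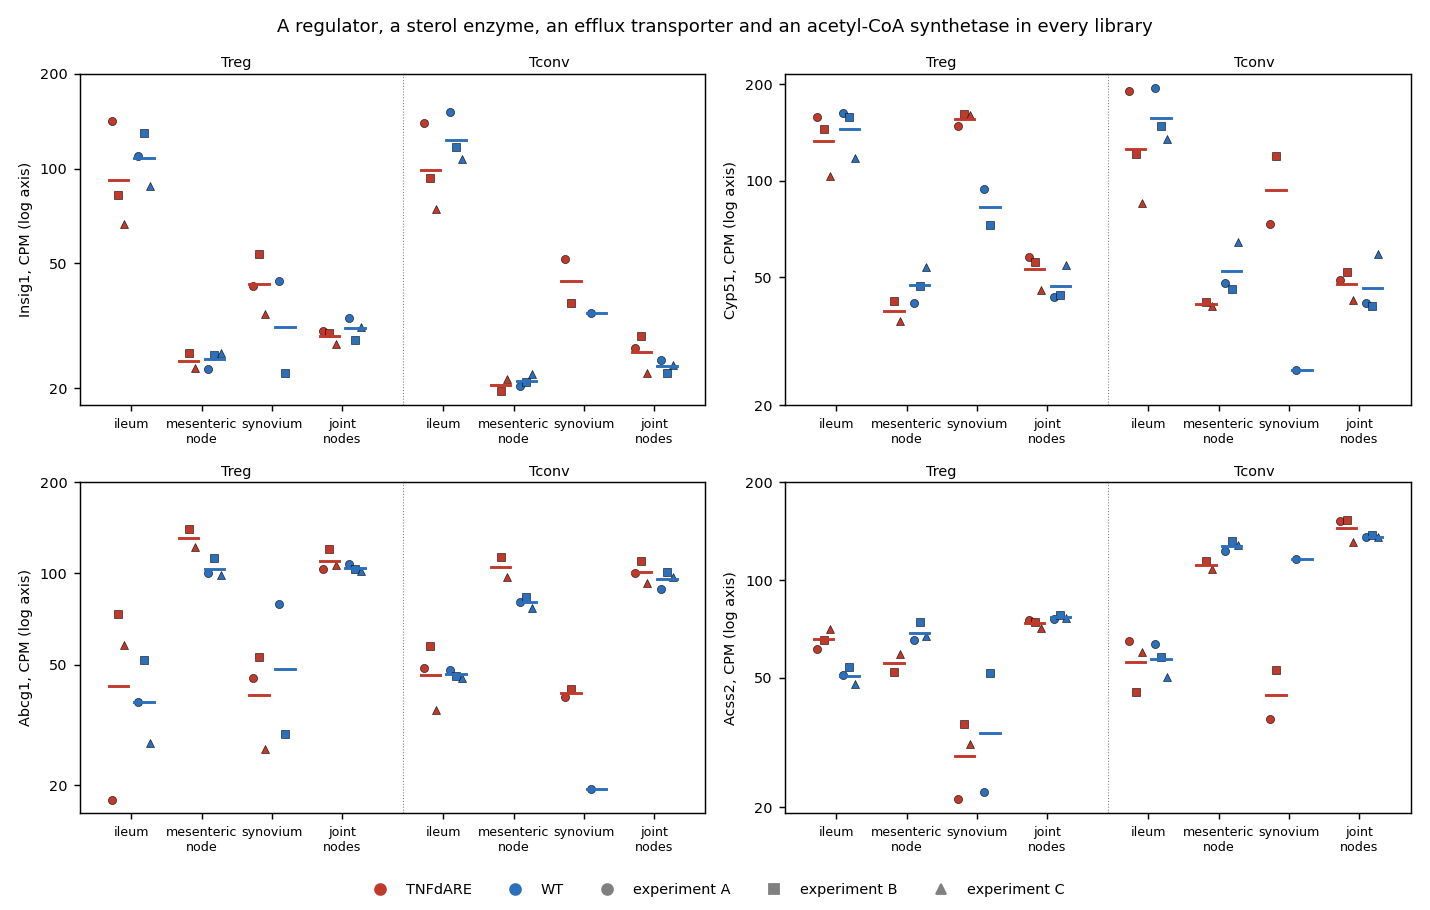
Insig1, Cyp51, Abcg1 and Acss2 in every library, in CPM on log axes, by cell type and site. Points are libraries, colour is genotype, shape is experiment, and lines are group means. Ileal Insig1 lies between 66.7 and 151 CPM and mesenteric node Insig1 between 19.6 and 25.9 CPM, and node Tconv have more Acss2 than node Treg.

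Synovial T cells shared with ileal T cells a higher level of Acsbg1, Cyp51 and Hsd17b7 and a lower level of Abcg1 than draining nodes. Insig1 passed in synovial Tconv, compared within TNFdARE, and not in synovial Treg, averaged over both genotypes. In Treg, averaged over both genotypes, 7 of 34 genes were higher and 7 lower in the synovium than in the joint nodes. There 19.2% of all tested genes were higher and 18.5% lower. The 7 higher genes include Scd1 and Fads2, which passed the filter on low counts only through tissue libraries. In TNFdARE Tconv, 11 of 34 were higher and 4 lower, where 17.2% of all tested genes were higher and 14.1% lower. Of the genes called higher, 4 were shared (57.1% of the Treg calls and 36.4% of the Tconv calls), namely Acsbg1, Cyp51, Hsd17b7 and Sqle. Of the genes called lower, Abcg1, Acly and Acss2 were shared (42.9% and 75%). As in the ileum, no overlap over all tested genes stands beside these shares. Sc5d was called in opposite directions, lower in synovial Treg (log2 fold change −0.62, adjusted p = 0.014, edgeR) and higher in synovial Tconv (0.39, adjusted p = 0.032, edgeR). With the experiment as a block, Sc5d and Sqle in synovial Tconv did not pass (adjusted p = 0.059 and 0.071, edgeR). Of 12 proliferation markers, 12 were called higher in the synovium in TNFdARE Tconv and 4 in Treg, where their summed CPM overlapped (622 to 980.7 in the synovium against 572.5 to 734.5 in the joint nodes). Their part was not tested.

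Acsbg1 had 120, 187 and 206 CPM as lowest, median and highest in 5 synovial Treg libraries against 52.6, 80.4 and 98 CPM in 6 joint node Treg libraries (log2 fold change 1.16 ± 0.11, adjusted p = 5e-05, edgeR). In TNFdARE Tconv it had 190 and 186 CPM in the synovium against 22.2 to 22.7 CPM in the joint nodes (3.08 ± 0.13, adjusted p = 7.1e-07, edgeR). The WT synovial Tconv library, with Foxp3 at 31.11 CPM, had 118 CPM against 10.4 to 12.5 CPM in WT joint node Tconv. In that library the 4 Treg markers summed to 478.6 CPM against 32.56 to 38.72 CPM in WT joint node Tconv, and the 4 CD8 T and NK cell markers to 928.5 CPM against 26.51 to 30.28 CPM. Their part was not tested. Cyp51 had 148, 161 and 160 CPM in TNFdARE and 94.1 and 73.0 CPM in WT synovial Treg against 43.5 to 58.0 CPM in the joint nodes (1.17 ± 0.12, adjusted p = 5.4e-05, edgeR). In TNFdARE Tconv Cyp51 had 73.1 and 119 CPM in the synovium against 42.6 to 51.9 CPM in the joint nodes (1.03, adjusted p = 0.0052, edgeR). The WT synovial Tconv library went the other way, with 25.8 CPM against 40.7 to 59.1 CPM. Hsd17b7 had 27.1, 48.8 and 60.2 CPM in TNFdARE and 86.3 and 21.1 CPM in WT synovial Treg against 7.04 to 9.42 CPM in the joint nodes (2.59 ± 0.36, adjusted p = 0.00042, edgeR). Hmgcs1 had 58.1, 90.2 and 115 CPM in synovial Treg against 41.6, 45.4 and 49.8 CPM in the joint nodes (0.97 ± 0.17, adjusted p = 0.002, edgeR). Insig1 had 22.3, 42.3 and 53.6 CPM in synovial Treg of both genotypes against 27.6, 30.2 and 33.5 CPM in the joint nodes and did not pass (0.31 ± 0.20, adjusted p = 0.25, edgeR). TNFdARE synovial Tconv had 51.4 and 37.4 CPM against 22.3 to 29.3 CPM (0.78 ± 0.17, adjusted p = 0.008, edgeR). Within TNFdARE, same-experiment pairs gave 0.321 to 0.835 in Treg (3 of 3 higher) and 0.348 to 0.934 in Tconv (2 of 2 higher). In WT the 2 Treg pairs gave −0.347 and 0.388, and the 1 Tconv pair gave 0.494. Whether the change of Insig1 differs between the cell types was not tested.

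Scd1, a stearoyl-CoA desaturase abundant in adipose tissue, was high in synovial Treg, with 13.2, 15.7 and 11.9 CPM in TNFdARE and 182 and 98.5 CPM in WT, against at most 1.18 CPM in joint node Treg. It passed the filter on low counts only through the synovial libraries, so its values are a description. The summed fibroblast markers were high in the same libraries, 4316, 5806 and 1380 CPM in TNFdARE and 15730 and 12740 CPM in WT. The summed CPM of 5 adipocyte markers was 14.75, 106.3 and 3.801 in TNFdARE and 288.7 and 27.25 in WT synovial Treg. Their part was not tested. Within TNFdARE, without both WT synovial Treg libraries, Acsbg1, Cyp51 and Hsd17b7 were called (adjusted p = 0.00016, 3.5e-05 and 0.00025, edgeR), and Sqle was not (adjusted p = 0.056, edgeR). Fads2, which also passed the filter only through tissue libraries, was called in synovial Treg from 3 of 5 libraries, and lost the call with the experiment as a block (adjusted p = 0.081, edgeR).

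The lower genes of the synovium included the acetate route. Acss2 had 21.2, 36.0 and 31.4 CPM in TNFdARE and 22.2 and 51.7 CPM in WT synovial Treg against 71.4 to 78.2 CPM in joint node Treg (log2 fold change −1.21 ± 0.22, adjusted p = 0.0021, edgeR). TNFdARE Tconv had 37.3 and 53.0 CPM in the synovium against 131 to 153 CPM in the joint nodes (−1.67 ± 0.16, adjusted p = 6.7e-05, edgeR). Acly had 216.4, 231.5 and 310.0 CPM in synovial Treg against 294.8, 327.1 and 356.7 CPM in joint node Treg (−0.46, adjusted p = 0.0036, edgeR), with overlap, and 257.4 and 336.8 CPM in TNFdARE synovial Tconv against 409.6 to 418.3 CPM in the joint nodes (−0.46, adjusted p = 0.023, edgeR). Fasn had 49.2 and 53.1 CPM in TNFdARE synovial Tconv against 99.4 to 144 CPM in the joint nodes (−1.28 ± 0.15, adjusted p = 0.00027, edgeR). Abcg1 had 26.3, 45.1 and 79.5 CPM in synovial Treg against 102, 105 and 120 CPM in joint node Treg (−1.19, adjusted p = 0.0064, edgeR), and 39.1 and 41.7 CPM in TNFdARE synovial Tconv against 92.8 to 110 CPM (−1.30 ± 0.11, adjusted p = 3.7e-05, edgeR). Mvd and the last sterol enzyme, Dhcr7, fell in synovial Treg as well. Dhcr7 had 9.88, 21.5 and 32 CPM in synovial Treg against 34.5, 41.1 and 45.9 CPM in joint node Treg (−1.08 ± 0.25, adjusted p = 0.0076, edgeR), and Mvd had 11.5, 15.3 and 17.9 CPM against 20.4, 24.3 and 24.7 CPM (−0.69 ± 0.18, adjusted p = 0.016, edgeR), both without overlap. In TNFdARE synovial Tconv, Ebp had 79.3 and 92.8 CPM against 56.8 to 60.9 CPM in the joint nodes (0.55 ± 0.11, adjusted p = 0.0054, edgeR), Stard4 had 27.4 and 35.6 CPM against 14.8 to 16.6 CPM (1.04, adjusted p = 0.0034, edgeR), and Hsd17b7 had 28.1 and 39.5 CPM against at most 12.6 CPM (1.63 ± 0.21, adjusted p = 0.00042, edgeR). In same-experiment pairs Abcg1 was lower in tissue in every ileal and synovial pair of both cell types.

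**Figure D4:**
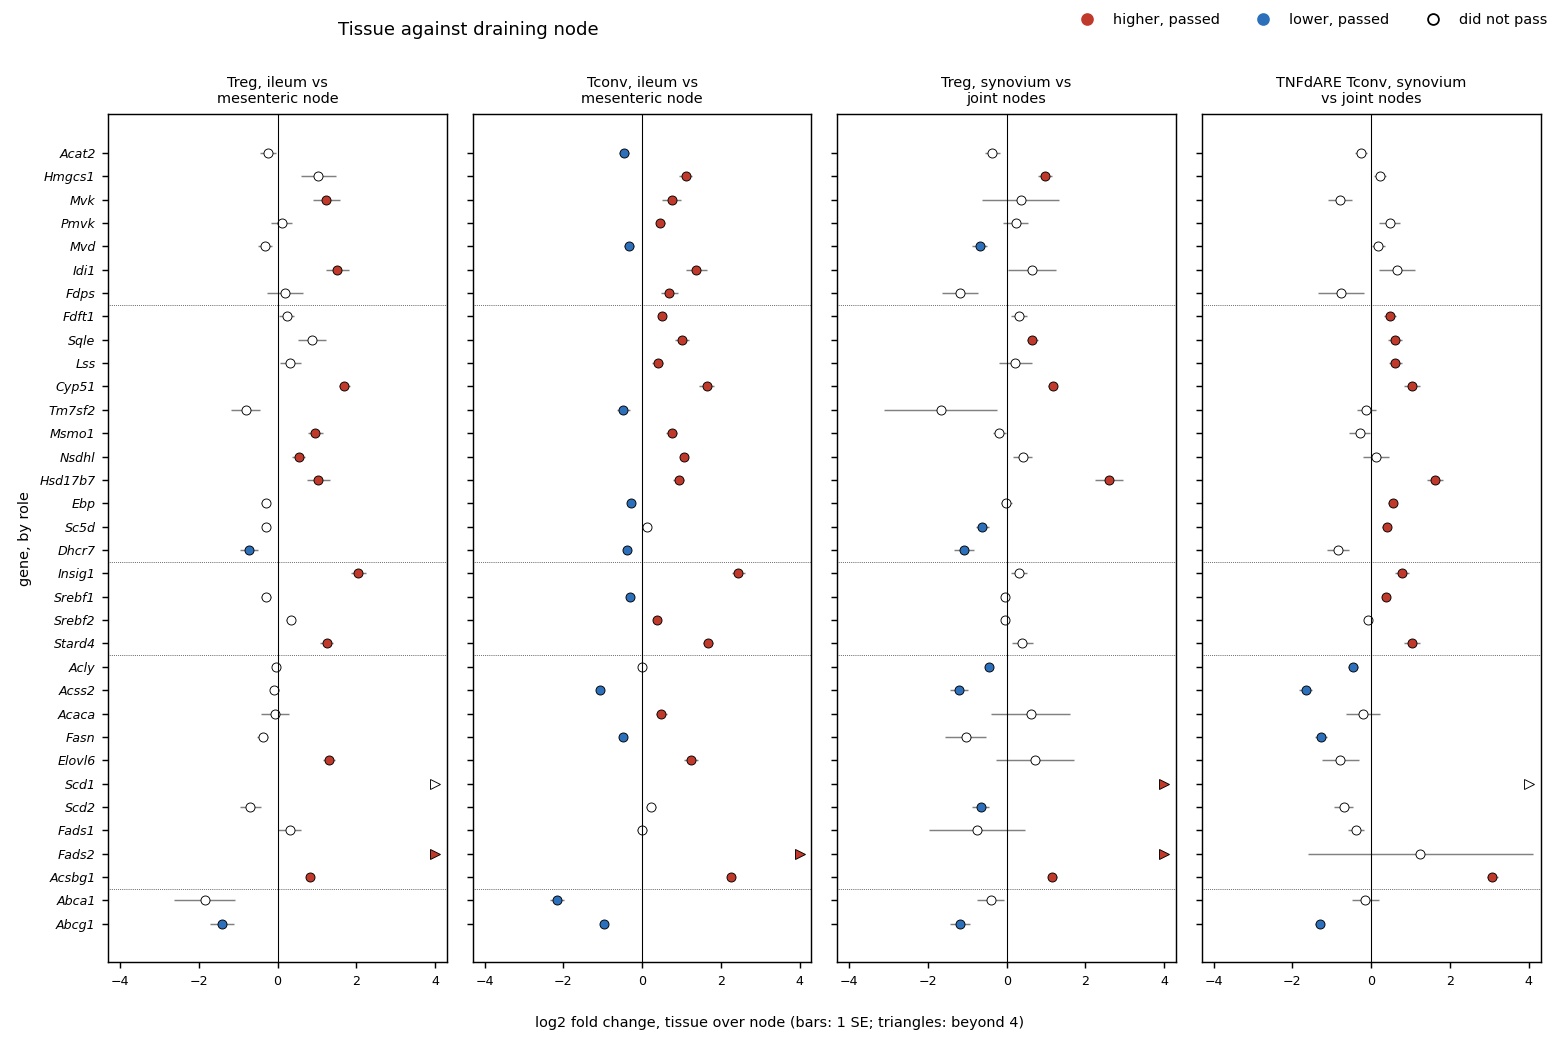
Log2 fold change of the 34 genes (rows, by role), tissue over draining node, in 4 comparisons. Bars are 1 SE, filled points passed the test, and triangles lie beyond 4. Insig1 is 2.05 and 2.45 in the ileal comparisons and 0.31 and 0.78 in the synovial ones, while Abcg1 is below 0 and filled in all 4.

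In the nodes, Acsbg1 was higher and Acss2 lower in Treg than in Tconv, and smaller changes ran in both directions. Of 32 genes tested in the mesenteric node, 8 were higher and 8 lower in Treg, where 20.8% of all tested genes were higher and 17.8% lower. In the joint nodes, which share no library with the mesenteric node, 8 were again higher and 8 lower, where 22.1% of all tested genes were higher and 21.2% lower. These shares lie near those of all genes. Acsbg1, Ebp, Insig1, Mvd, Sc5d and Scd2 were higher at both nodes (75% of each list), and Acat2, Acly, Acss2, Dhcr7, Hmgcs1 and Msmo1 lower at both (75% of each list). The overlap between the nodes over all tested genes is not given here. No gene was called in opposite directions. Of 12 proliferation markers, 9 were called higher in Treg in the joint nodes, and 5 higher and 1 lower in the mesenteric node.

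Acsbg1 led the genes higher in Treg, with 61.7 to 132 CPM in Treg against 12.7 to 27.7 CPM in Tconv of the mesenteric node (log2 fold change 2.28 ± 0.09, adjusted p = 3.7e-09, edgeR). In the joint nodes it had 52.6, 80.4 and 98 CPM in Treg against 10.4, 17.4 and 22.7 CPM in Tconv (2.24 ± 0.08, adjusted p = 2.9e-11, edgeR). Acss2 led the lower ones. Treg of the mesenteric node had 52.0 and 59.3 CPM in TNFdARE and 65.3, 74.5 and 67.2 CPM in WT. Tconv of the same node had 114 and 108 CPM in TNFdARE and 122, 132 and 128 CPM in WT (log2 fold change of Treg over Tconv −0.94 ± 0.06, adjusted p = 2.8e-07, edgeR). In the joint nodes Acss2 had 71.4, 75.7 and 78.2 CPM in Treg against 131, 136 and 153 CPM in Tconv (−0.89 ± 0.05, adjusted p = 5.4e-09, edgeR). Treg and Tconv did not overlap in either gene. The exons of Acss2 share 9.121% of their bases with genes on the opposite strand, and the deposited counts are not stated to use strand.

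The remaining node calls were smaller, with log2 fold changes within 0.73 of 0. Mvd had 22.3, 26.4 and 33 CPM as lowest, median and highest in Treg against 15, 16.4 and 18.4 CPM in Tconv of the mesenteric node (0.68 ± 0.10, adjusted p = 0.00022, edgeR), without overlap, and 20.4, 24.3 and 24.7 CPM against 15.4, 17.4 and 23.2 CPM in the joint nodes (0.39 ± 0.08, adjusted p = 0.0012, edgeR). Scd2, another stearoyl-CoA desaturase, had 116.5, 130.5 and 179.7 CPM in Treg against 73.99, 94.21 and 125.5 CPM in Tconv of the joint nodes (0.57 ± 0.10, adjusted p = 0.00038, edgeR), and its mesenteric change was 0.30 (adjusted p = 0.0051, edgeR). Scd2 and Scd1 are paralogs that may share reads. Sc5d had 89.35, 94.18 and 109.4 CPM in Treg against 59.9, 70.19 and 89.89 CPM in Tconv of the mesenteric node (0.40 ± 0.09, adjusted p = 0.0039, edgeR), and 71.14, 102.5 and 131.4 CPM against 61.64, 69.93 and 86.7 CPM in the joint nodes (0.45 ± 0.08, adjusted p = 0.00041, edgeR). Medians were higher in Treg for both genes, with some overlap between the cell types.

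Of the genes lower in Treg, Acat2, the first enzyme of the route, had 22.49, 23.5 and 28.19 CPM in Treg against 28.77, 29.7 and 34.79 CPM in Tconv of the mesenteric node (−0.35 ± 0.09, adjusted p = 0.0087, edgeR) and 20.84, 24.26 and 27.97 CPM against 28.69, 30.61 and 34.13 CPM in the joint nodes (−0.35 ± 0.07, adjusted p = 0.0006, edgeR). Neither site overlapped. Hmgcs1, the next enzyme, had 41.6, 45.35 and 49.79 CPM in Treg against 51.31, 55.17 and 75.31 CPM in Tconv of the joint nodes (−0.37 ± 0.08, adjusted p = 0.0019, edgeR) and −0.30 in the mesenteric node. Mvk had 4.69, 5.34 and 6.00 CPM in Treg against 7.05, 8.59 and 11.02 CPM in Tconv of the joint nodes (−0.73 ± 0.14, adjusted p = 0.00056, edgeR). Acly had 294.8, 327.1 and 356.7 CPM in Treg against 373.4, 397.3 and 418.3 CPM in Tconv of the joint nodes (−0.27 ± 0.05, adjusted p = 0.00085, edgeR), without overlap, and passed narrowly in the mesenteric node. Sqle had 14.32, 24.93 and 34.19 CPM in Treg against 28.18, 33.21 and 37.28 CPM in Tconv of the mesenteric node (−0.55 ± 0.12, adjusted p = 0.0028, edgeR), and Dhcr7 had 37.49, 41.59 and 47.72 CPM against 47.12, 52.43 and 56.4 CPM (−0.30 ± 0.07, adjusted p = 0.0048, edgeR). Both overlapped between the cell types.

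In the ileum 4 of 34 genes were called between Treg and Tconv, 3 higher and 1 lower in Treg, where 7.93% of all tested genes were higher and 6.85% lower. Acsbg1 was again higher in Treg, 110, 153 and 242 CPM against 51.4, 97.3 and 151 CPM in Tconv (log2 fold change 0.85 ± 0.10, adjusted p = 0.00015, edgeR), with overlap between TNFdARE Tconv and WT Treg. Mvd had 16.36, 20.7 and 28.14 CPM in Treg against 10.23, 12.47 and 19.58 CPM in Tconv (0.70 ± 0.18, adjusted p = 0.025, edgeR). Ebp, the sterol isomerase, passed narrowly at 0.34. Nsdhl had 20.21, 28.47 and 37.28 CPM in Treg against 33.04, 37.05 and 47.92 CPM in Tconv (−0.46 ± 0.13, adjusted p = 0.041, edgeR). All 4 overlapped between the cell types. With the experiment as a block 7 genes were called, a count given without a share of all tested genes. Acss2 did not separate the cell types there, with 47.8 to 70.8 CPM in Treg and 45.3 to 64.8 CPM in Tconv. In the synovium none of the 34 genes passed, where 0.952% of all tested genes were higher and 0.145% lower in Treg. By an unadjusted p below 0.05, edgeR gave 3 genes there, and DESeq2 called 6. No share of all tested genes stands beside these counts, so they are a description only. Acsbg1 had 120 to 206 CPM in synovial Treg and 118 to 190 CPM in synovial Tconv.

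Apart from Acsbg1, 4 genes were called by genotype, Sqle, Abcg1, Scd2 and Sc5d, each in 1 of 7 comparisons. Over the 19 same-experiment pairs of TNFdARE and WT libraries, Ebp and Sc5d were higher in TNFdARE in 16 pairs each, Srebf2 in 4 and Elovl6 in 3. These 4 were chosen after their values were seen, and the pairs carry no test. In ileal Treg and ileal Tconv Acsbg1 was the only call, 1 of 34 genes in each, where 0.484% and 1.17% of all tested genes were higher and 0.245% and 0.138% lower. In mesenteric node Treg 2 of 32 were higher and 1 lower, where 3.84% of all tested genes were higher and 1.84% lower. Sqle, the squalene epoxidase, was the lower one, with 18.6 and 14.3 CPM in TNFdARE against 24.9, 34.2 and 29.9 CPM in WT (log2 fold change −0.79 ± 0.17, adjusted p = 0.019, edgeR). The call was lost without the WT library of experiment B or the TNFdARE library of experiment C. Abcg1 was higher there, 141 and 122 CPM in TNFdARE against 100, 112 and 99.2 CPM in WT (0.39 ± 0.10, adjusted p = 0.041, edgeR), and lost the call in 4 of 5 fits with a library left out.

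In mesenteric node Tconv 2 of 32 genes were higher and none lower, where 1.79% of all tested genes were higher and 0.574% lower. Beside Acsbg1 this was Scd2, with 117 and 104 CPM in TNFdARE against 70.6, 72.4 and 87.7 CPM in WT (log2 fold change 0.51 ± 0.10, adjusted p = 0.021, edgeR), a call lost in 3 of 5 fits with a library left out. In joint node Treg 2 of 32 were higher and none lower, where 3.36% of all tested genes were higher and 2.34% lower. Beside Acsbg1 this was Sc5d, with 112, 110 and 131 CPM in TNFdARE against 71.1, 73.7 and 94.7 CPM in WT (0.56 ± 0.11, adjusted p = 0.0097, edgeR), lost without the WT library of experiment B or the TNFdARE library of experiment C. In joint node Tconv Acsbg1 was the only call of 32 genes, where 2.29% of all tested genes were higher and 0.504% lower. In synovial Treg none of the 34 genes passed, where 0.111% of all tested genes were higher and 0.0445% lower. By an unadjusted p below 0.05, edgeR gave 3 genes there, and DESeq2 called 2. The test of a difference in genotype effect between Treg and Tconv called none of the genes in the ileum, mesenteric node or joint nodes, where 0.0188%, 0.209% and 0.449% of all tested genes were called. By an unadjusted p below 0.05 it gave 1, 5 and 2 genes, and DESeq2 called 0 in each. No share of all tested genes stands beside these unadjusted and DESeq2 counts or those of synovial Treg, so they are a description only.

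Neither Srebf1 nor Srebf2, which encode the transcription factors of the 2 pathways, was called by genotype. Srebf2 had 186 and 174 CPM in TNFdARE against 243, 236 and 239 CPM in WT mesenteric node Treg, without overlap, and did not pass (log2 fold change −0.35 ± 0.10, adjusted p = 0.056, edgeR). In mesenteric node Tconv it had 224 and 190 CPM in TNFdARE against 250, 244 and 276 CPM in WT (−0.33 ± 0.10, adjusted p = 0.12, edgeR). Srebf1 stayed between 59.0 and 141 CPM in all libraries. Its highest group was TNFdARE synovial Tconv, with 140 and 141 CPM against 105 to 115 CPM in TNFdARE joint node Tconv (0.38 ± 0.10, adjusted p = 0.02, edgeR). Insig1 was not called by genotype at any site. In ileal Treg it had 142, 82.1 and 66.7 CPM in TNFdARE and 110, 130 and 88.3 CPM in WT, and in ileal Tconv 139, 93.3 and 74.4 CPM in TNFdARE and 151, 117 and 107 CPM in WT.

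Other genes of the same pathways were taken from 2 further lists, 20 genes of sterol handling and 21 of fatty acid handling. By genotype, 1 of 21 fatty acid genes was called higher in ileal Treg and 1 of 21 in ileal Tconv, and in both this was Fabp5, a fatty acid binding protein. Fabp5 had 76.0 to 99.2 CPM in TNFdARE against 31.2 to 38.7 CPM in WT ileal Treg (log2 fold change 1.36, adjusted p = 0.0089, edgeR) and 53.5 to 87.7 CPM in TNFdARE against 15.7 to 17.4 CPM in WT ileal Tconv (2.14 ± 0.19, adjusted p = 0.00032, edgeR). In mesenteric node Treg Fabp5 had 56.8 and 94.4 CPM in TNFdARE against 10.01 to 15.03 CPM in WT (2.72 ± 0.22, adjusted p = 8.5e-05, edgeR). Between ileum and mesenteric node, 3 of 20 sterol genes were higher and 3 lower in Treg, and 5 higher and 9 lower in Tconv. Of all tested genes, 17% were higher and 12.2% lower in Treg, and 34.3% higher and 26.7% lower in Tconv. Mylip, a ubiquitin ligase for lipoprotein receptors that liver X receptors raise, was among the lower ones, with 15.5, 22.1 and 35.6 CPM in ileal Treg against 51.4, 62.2 and 63.2 CPM in node Treg (−1.34 ± 0.16, adjusted p = 0.00026, edgeR), and with 26, 38.6 and 47.1 CPM in ileal Tconv against 84.2, 96.4 and 106 CPM in node Tconv (−1.38 ± 0.07, adjusted p = 1.8e-08, edgeR). Of the fatty acid list, 6 of 21 genes were higher and 2 lower in ileal Treg, and 8 of 19 higher and 6 lower in ileal Tconv. Mid1ip1, which activates acetyl-CoA carboxylase, was higher in ileal Treg (14.2, 25.7 and 36.9 CPM against 10.1, 10.8 and 11 CPM in node Treg) and in ileal Tconv (13, 15.7 and 19.8 CPM against 5.61, 7.74 and 8.78 CPM in node Tconv). Fabp5 was also called higher in mesenteric node Tconv, 11.4 and 13.6 CPM in TNFdARE against 4.6 to 5.9 CPM in WT (1.27, adjusted p = 0.014, edgeR), and in joint node Treg, 21.4 to 28.2 CPM against 12.5 to 14.5 CPM (0.80, adjusted p = 0.0048, edgeR). In joint node Tconv it had 4.61 to 5.95 CPM in TNFdARE and 4.85 to 5.28 CPM in WT. In the synovium, 4 of 18 sterol genes were higher and 3 lower than in the joint nodes in Treg, with 7 of 20 fatty acid genes higher and 3 lower. In TNFdARE Tconv, 4 of 20 sterol genes were higher and 6 lower, with 7 of 21 fatty acid genes higher and 2 lower. Of all tested genes, 19.2% were higher and 18.5% lower in Treg, and 17.2% higher and 14.1% lower in TNFdARE Tconv. Pparg, a nuclear receptor for fatty acids that marks adipocytes and also tissue Treg, had 48.5, 81.8 and 146 CPM in synovial Treg against 0.294, 0.864 and 2.95 CPM in joint node Treg (adjusted p = 2.3e-06, edgeR). Between Treg and Tconv, 2 of 19 sterol genes were higher and 6 lower in the mesenteric node and 3 of 18 higher and 6 lower in the joint nodes, and of 17 fatty acid genes 5 were higher and 5 lower in the mesenteric node and 6 higher and 4 lower in the joint nodes. Of all tested genes, 20.8% were higher and 17.8% lower in the mesenteric node, and 22.1% higher and 21.2% lower in the joint nodes. In the nodes Npc2, which moves cholesterol out of lysosomes, was lower in Treg, with 147, 161 and 180 CPM against 316, 340 and 347 CPM in Tconv of the joint nodes (−1.03 ± 0.06, adjusted p = 3.5e-09, edgeR).

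Scores averaged log2 CPM over the 18 sterol enzymes and over the 10 fatty acid genes in each library, and they carry no test. The sterol score was highest in ileal Tconv, with group means of 4.73 in TNFdARE and 4.89 in WT, and lowest in WT synovial Treg at 3.92. Ileum minus mesenteric node was 0.46 in TNFdARE and 0.20 in WT Treg, and 0.46 in TNFdARE and 0.47 in WT Tconv. The WT Treg difference was 0.40 without the WT ileal library of experiment C and 0.05 without that of experiment B. TNFdARE minus WT was 0.08 in ileal Treg, −0.17 in mesenteric node Treg, 0.12 in joint node Treg and 0.51 in synovial Treg. The synovial Treg libraries overlapped, at 4.07, 4.76 and 4.46 in TNFdARE against 3.36 and 4.47 in WT, and the difference was −0.04 without the WT library of experiment A. In Tconv TNFdARE minus WT was −0.16 in the ileum, −0.15 in the mesenteric node and 0.08 in the joint nodes. The fatty acid score ran from 3.70 in WT mesenteric node Tconv to 4.90 in TNFdARE ileal Treg. Ileum minus mesenteric node was 0.91 in TNFdARE and 0.74 in WT Treg, and 0.57 in TNFdARE and 0.99 in WT Tconv. The WT Treg difference was 1.29 without the WT ileal library of experiment C and 0.37 without that of experiment B. Scd1 and Fads2 are among the 10 genes of this score and were both near 0 in the nodes. They had the widest range of group means among the 34 genes, 10.53 and 5.94 on the log2 scale. Where they passed the filter on low counts, they did so only through tissue libraries. A fatty acid score without them is not given here, so its differences between tissue and node are a description and not a trait shown for the other genes.

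**Figure D5:**
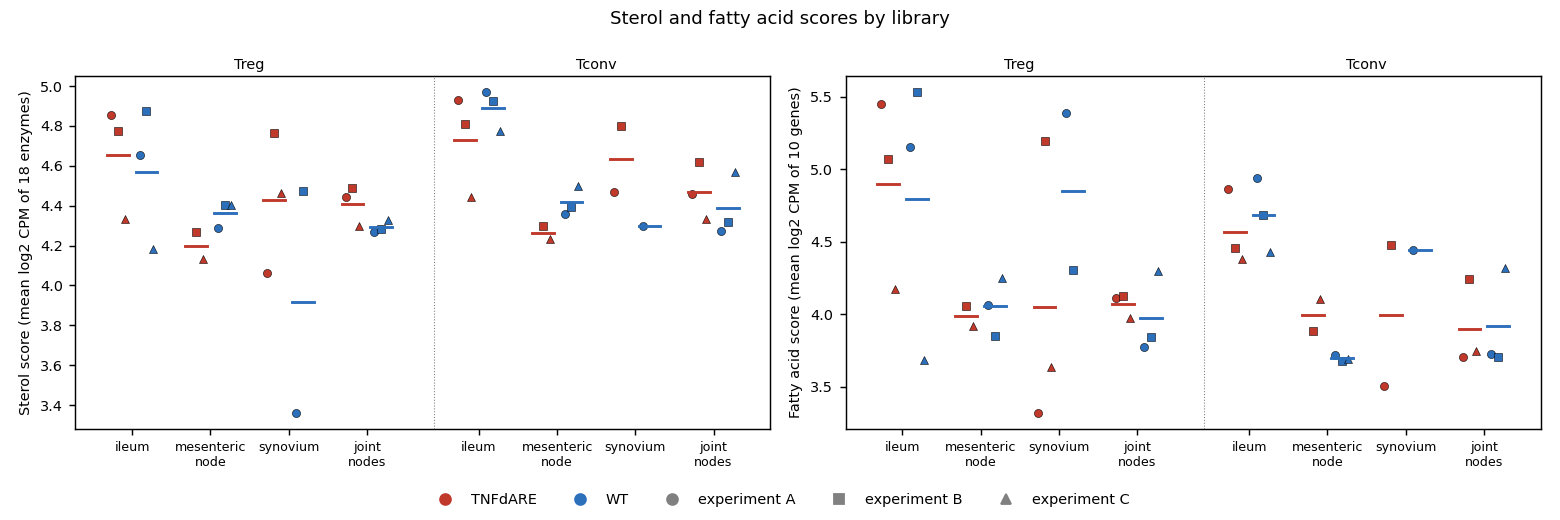
Sterol score (left, mean log2 CPM of 18 enzymes) and fatty acid score (right, mean log2 CPM of 10 genes) in every library, by cell type and site. Points are libraries, colour is genotype, shape is experiment, and lines are group means. Ileal Tconv lie above mesenteric node Tconv in the fatty acid score and overlap with them in the sterol score. Among ileal Treg, the libraries of experiment C lie lowest, and the WT one has a fatty acid score of 3.68, below all mesenteric node Treg.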

How the data were processed

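Bulk RNA of sorted cells had been made into cDNA with SMART-Seq v4 from 100 pg or 2 ng of RNA, per the labels' protocols, which do not say which library had which amount, and sequenced as single reads. The submitters' processing notes name the build GRCm38 and the tools Bowtie2 2.3.3.1 and cutadapt 1.15. The counting program is not given in the sources used here. The deposited values are raw read counts per Ensembl gene. The authors also deposited FPKM values, used here only to compare levels between genes: 97.2% of the 18964 genes in that table hold a value repeated in several libraries. Symbols and positions came from GENCODE M21.

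Counts were tested with edgeR 4.0.16 (R 4.3.3): TMM factors, filterByExpr, a quasi-likelihood fit of all libraries of a site with 1 mean per group, and Benjamini-Hochberg adjustment over all genes tested, with calls below 0.05. Tissue and node were compared in fits of 1 cell type at both sites. Between 32 and 34 of the 34 genes passed the filter in each fit, and a gene near 0 in the nodes could pass only through the tissue. The prior count of log2 CPM was 2. Alternatives were DESeq2 1.42.0, other size factors, no filter, a replicate block, a sample sheet number, a fit of all 42 libraries and leaving out each library. The fit was tested on simulated data. Depth was 18261064 to 30301202 counts per library, without molecular identifiers. Standard errors and p-values rest on the spread between libraries.

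The members and lists were chosen with earlier results of these data known. Comparisons share libraries: Treg against Tconv and TNFdARE against WT use the same libraries of a site. Per comparison, values are given for up to 6 called members in each direction by adjusted p, and of other pathway genes for up to 3 of each list; some genes that this rule named are not reported here. The experiment letter marks a shared experiment, so libraries with the same letter are paired. Same-letter TNFdARE and WT libraries correlated in their deviations with r between −0.25 and 0.41 (median 0.11, 18 pairs), and same-letter Treg and Tconv with r between −0.0511 and 0.51 (median 0.22, 19 pairs). No 2 libraries of a group were identical.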

Additional observations from a re-analysis of the deposited data

How the results depend on the processing

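Over all alternatives, 217 counts of called genes stayed within 1.5 times the reported count and 47 did not. No share of all tested genes stands beside the counts of alternative or leave-out fits in this section. These counts are a description of the fits and not a result about these genes. Single calls kept their side of the threshold in 1615 refits, lost it in 246 and changed direction in 0. With the experiment as a replicate block, Treg against Tconv in the ileum gave 7 calls in place of 4, and calls named above as lost under the block were Mvk, Nsdhl and Fads2 in ileal Treg and Fads2 in synovial Treg. Fdft1, Sqle and Sc5d in synovial Tconv were lost as well (adjusted p = 0.089, 0.071 and 0.059). The sample sheet number was used as above 32 or not. It was above 32 in most synovial libraries, in several ileal Treg libraries and, among node libraries, only in WT joint node Treg of experiment C. It thus goes largely with tissue against node. The sample sheet number gave 2 calls for Treg against Tconv in the ileum and 7 in place of 14 for synovial Treg against joint nodes. In ileal Treg by genotype its 1 call was not Acsbg1 (adjusted p = 0.053, edgeR). It could not be estimated in the mesenteric node or in Tconv of ileum against mesenteric node.

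DESeq2 gave 5 calls in place of 3 for genotype in mesenteric node Treg, 5 in place of 2 in mesenteric node Tconv, 2 in place of 0 in synovial Treg, and 6 in place of 0 for Treg against Tconv in the synovium. Without a filter, counts were 4 in mesenteric node Tconv, 1 for the joint node interaction and 2 for Treg against Tconv in the synovium. The fit of all 42 libraries gave 1 call in mesenteric node Treg, 1 in mesenteric node Tconv and 1 in joint node Treg by genotype, 4 in synovial Treg by genotype, 3, 4 and 5 for Treg against Tconv in the mesenteric node, joint nodes and synovium (16, 16 and 0 reported), and 19 in place of 29 for ileal Tconv against node. The cause was not tested. Chosen after seeing the data, leaving out both ileal Treg libraries of experiment A gave 0 calls by genotype and 2 against Tconv.

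Leaving out each library in turn gave, by genotype, 0 to 1 calls in ileal Treg, 1 to 2 in mesenteric node Treg, 1 to 3 in mesenteric node Tconv, 1 to 3 in joint node Treg and 0 to 3 in synovial Treg, the most without the WT library of experiment B. Treg against Tconv gave 1 to 6 in the ileum, 11 to 16 in the mesenteric node, 15 to 17 in the joint nodes and 0 to 5 in the synovium. Tissue against node gave 8 to 20 in ileal Treg (8 without either TNFdARE node library, 20 without the WT ileal library of experiment C), 12 to 21 in synovial Treg, 25 to 29 in ileal Tconv and 9 to 19 in synovial Tconv. Groups of 1 to 3 libraries limit what the synovium can show, and single libraries there carry markers of other cells. Of the scores, 3 genotype differences moved by more than the spread between libraries under another summary or unit: the sterol score was −0.31 in mesenteric node Treg and −0.05 in mesenteric node Tconv by the median of the genes, and the fatty acid score 0.13 in mesenteric node Tconv in the authors' FPKM. Leaving out single libraries, chosen after seeing the data, took the ileal Treg genotype difference between −0.11 and 0.24 for the sterol score and between −0.45 and 0.48 for the fatty acid score. The sterol score difference ran from −0.04 to 1.07 in synovial Treg, from −0.26 to −0.02 in ileal Tconv and from 0.01 to 0.18 in joint node Tconv.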
